A study of Arabidopsis thaliana with 12 samples.

Results

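The expression of 7 transcription factor genes of the unfolded protein response (UPR) was examined, picked by name and locus from the 33557 genes of the table. They were the 4 bZIP genes *bZIP60* (AT1G42990), *bZIP28* (AT3G10800), *bZIP17* (AT2G40950) and *bZIP49* (AT3G56660) and the 3 NAC genes *NAC103* (AT5G64060), *NAC062* (AT3G49530) and *NAC089* (AT5G22290). RNA-Seq was performed on *Arabidopsis thaliana* seedlings in the Columbia background that were grown without added stress, with 3 libraries for each of 4 genotypes. The genotypes were the wild type (WT), the homozygous T-DNA insertion mutant *bli* (*bli-1*), and 2 double mutants, *bli ire1a* and *bli ire1b*, homozygous for *bli-1* and for an insertion in *IRE1A* or *IRE1B*. The labels give the age as 12 days. The study's methods give an older age for the RNA-Seq seedlings, and the sources used here do not settle which is right. The *ire1a* and *ire1b* single mutants were not analysed here, so each *ire1* mutation was seen only in plants that also carry *bli-1*, and each mutant is represented by 1 insertion line.

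The UPR is the transcriptional program that cells turn on when unfolded proteins pile up in the endoplasmic reticulum (ER). In plants it has a branch that runs through RNA and a branch that runs through protein cleavage. In the first, the ER membrane protein IRE1 cuts the *bZIP60* transcript, and the rejoined transcript is read in another frame and encodes a protein that lacks the membrane anchor and enters the nucleus. In the second, bZIP28 and bZIP17 leave the ER for the Golgi, where the proteases S1P and S2P free their nuclear part. bZIP49 is a close relative of these bZIP proteins. NAC062 moves from the plasma membrane and NAC089 from the ER membrane to the nucleus under ER stress, and NAC089 is known for promoting cell death there. NAC103 has no membrane anchor and acts downstream of bZIP60. Apart from *NAC103*, these steps of activation act on RNA or protein that already exists, whereas the values below are the levels of the transcripts.

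The IRE1 site of *bZIP60* is shown because the values of this gene count its cut and uncut transcripts together. In the RefSeq transcript (TAIR10.1, exon 2 of 2, minus strand) a single pair of the loop motif CNGNNG lay 23 bases apart, and IRE1 cuts each loop after its first G. The stretch at chr1:16136254-16136324 is coding throughout, and the capitals mark the 23 bases that are removed.
bZIP60 uncut: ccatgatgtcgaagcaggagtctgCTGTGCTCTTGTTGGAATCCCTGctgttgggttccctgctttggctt
bZIP60 spliced: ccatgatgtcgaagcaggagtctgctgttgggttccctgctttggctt
Both loops read CTGCTG, and since 23 is not a multiple of 3 the frame changes after the cut. A table of 1 value per gene and library holds no junction reads, so the spliced share was not measured.

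The 250 bases before the annotated start of the 4 genes with the largest changes are shown next, since these genes moved together in the comparisons that follow. Capitals mark ACGT, the core of the sequences that plant bZIP proteins bind.
bZIP60 promoter, chr1:16137464-16137713, minus strand: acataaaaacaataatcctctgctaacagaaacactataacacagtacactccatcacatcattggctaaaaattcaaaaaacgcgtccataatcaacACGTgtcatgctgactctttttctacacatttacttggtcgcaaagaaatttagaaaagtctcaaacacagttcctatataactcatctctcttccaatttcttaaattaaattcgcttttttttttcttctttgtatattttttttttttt
NAC103 promoter, chr5:25635790-25636039, minus strand: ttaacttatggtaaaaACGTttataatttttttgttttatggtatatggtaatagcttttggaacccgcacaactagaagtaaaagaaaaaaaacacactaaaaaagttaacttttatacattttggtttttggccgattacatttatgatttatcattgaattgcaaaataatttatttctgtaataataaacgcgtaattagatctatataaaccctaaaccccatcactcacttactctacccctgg
NAC062 promoter, chr3:18364960-18365209, minus strand: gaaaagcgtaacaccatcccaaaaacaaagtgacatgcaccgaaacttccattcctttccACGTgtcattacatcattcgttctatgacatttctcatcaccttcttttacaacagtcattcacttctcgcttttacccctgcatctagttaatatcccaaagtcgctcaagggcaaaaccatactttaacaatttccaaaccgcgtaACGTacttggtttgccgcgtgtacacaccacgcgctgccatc
NAC089 promoter, chr5:7377777-7378026, minus strand: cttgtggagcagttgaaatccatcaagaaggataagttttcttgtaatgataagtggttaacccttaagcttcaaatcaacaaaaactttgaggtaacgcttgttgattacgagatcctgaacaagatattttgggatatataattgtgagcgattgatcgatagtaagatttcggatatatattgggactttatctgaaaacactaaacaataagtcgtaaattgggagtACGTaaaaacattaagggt
These windows come from RefSeq TAIR10.1, in which all 7 loci were found. ACGT occurred once in the window of *bZIP60*, *NAC103* and *NAC089* and 2 times in that of *NAC062*. It also occurred once in the window of *bZIP49* and in neither that of *bZIP28* nor that of *bZIP17*. Of the 27443 promoters of protein-coding genes with the same length, 44.1% held ACGT. Longer motifs known from UPR promoters were searched on both strands. The letters TGACGTG, which include the core ACGT, did not occur in these 7 windows and occurred in 2.9% of all promoters. The same held for TCATCG (6.45% of all promoters). It also held for the composite motif ERSE-I, which reads CCAAT and, after a spacer of 10 bases, CACG (0.689%), and for ERSE-II, in which ATTGG and a single free base come before CCACG (0.0619%). A match is only a match of letters, and sequence further upstream was not searched.

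Levels are given in FPKM (fragments divided by transcript length and by the mapped fragments of the library), a unit in which different genes can be set side by side. *BLI* was at 17.3 ± 0.435 FPKM in WT (SD, n = 3) and at 10.6 to 10.9 FPKM on average in the 3 mutants. *IRE1A* was at 5.23 FPKM in *bli ire1a* against 15.5 in WT, and *IRE1B* was at 4.91 in *bli ire1b* against 9.80 in WT, so each was lowest in its own mutant. The summed green tissue markers were at 51599 to 55474 FPKM in WT and at 37115 to 44512 in the mutants. The summed seed markers reached 43.2 FPKM in WT replicate 1. The deposited values hold no read counts, and the smallest steps between low values put the weight of a single fragment at 0.554 to 1.07 times that in WT replicate 1.

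*bZIP60* was the most abundant of the 7 factors in each of the 12 libraries and *bZIP49* the least abundant. In WT the levels of *NAC062*, *bZIP28*, *NAC089* and *bZIP17* lay close together, between 10.4 and 21.1 FPKM. Here the libraries of *NAC062* overlapped with those of the other 3 genes, and those of *NAC089* with *bZIP17*. *NAC103* was sixth in each WT library and each *bli ire1a* library, but the second or the third in each library of *bli* and *bli ire1b*. In *bli* its level overlapped with that of *NAC062* (39.4 to 45.7 against 40.1 to 43.5 FPKM), and *NAC089*, *bZIP28* and *bZIP17* followed without overlap. In *bli ire1b* the 6 most abundant factors did not overlap with one another. In *bli ire1a* the order was again close to that of WT, with *NAC062* overlapping with *bZIP28* and *NAC089* with *bZIP17*.

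**Figure D1:**
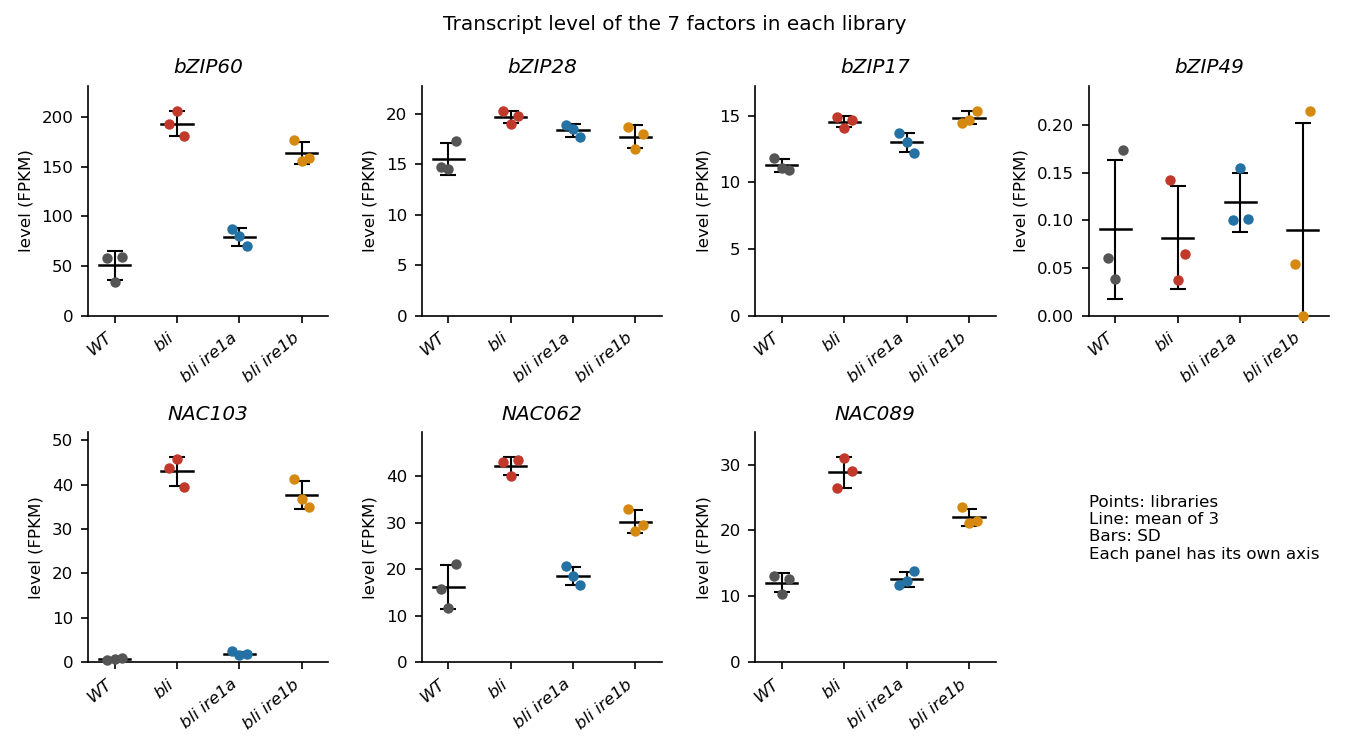
Level of each of the 7 factors in FPKM (vertical axis, own scale per panel, starting at 0) in each library of the 4 genotypes (points), with the mean (line) and SD (bars) of 3 libraries. *NAC103*, *bZIP60*, *NAC062* and *NAC089* were high in *bli* and *bli ire1b*, whereas *bZIP28* and *bZIP17* moved little and *bZIP49* stayed under 0.22 FPKM.

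In *bli*, all 6 factors that could be tested were more abundant than in WT. This comparison asks what the loss of *BLI* does to UPR genes without an ER stress agent. *NAC103* rose from 0.688 to 43.0 FPKM, *bZIP60* from 50.5 to 193, *NAC062* from 16.1 to 42.3 and *NAC089* from 12.0 to 28.8, whereas *bZIP28* and *bZIP17* rose only 1.27- and 1.29-fold. Across all 20645 tested genes, 17.3% were called higher and 17.0% lower in *bli* at adjusted p of at most 0.05 (limma, Benjamini-Hochberg over all tested genes). By the study's own rule (at least a 2-fold change with unadjusted p of at most 0.05), 4 of the 6 were higher, against 4.40% of all tested genes. The median log2 fold change was 1.34 over the 6 and -0.01 over all tested genes.

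*bZIP60*, the target of IRE1, was at 58.1, 34.1 and 59.3 FPKM in the WT libraries and at 193, 207 and 181 in those of *bli*. In the double mutants it was at 87.7, 80.3 and 70.1 FPKM (*bli ire1a*) and at 177, 156 and 158 (*bli ire1b*). Every mutant library was above every WT library, a description without a share over all tested genes, and WT replicate 2 was the lowest of all. The rise in *bli* over WT was 1.98 on the log2 scale (SE 0.18, adjusted p = 1.36e-05, limma), or 3.83-fold as a ratio of means.

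*NAC103*, the factor downstream of bZIP60, was at 0.487, 0.696 and 0.880 FPKM in WT and at 43.8, 45.7 and 39.4 in *bli*. It was at 2.39, 1.60 and 1.75 FPKM in *bli ire1a* and at 41.2, 36.9 and 35.0 in *bli ire1b*. The WT libraries were the lowest, the *bli ire1a* libraries came next, and the other 6 libraries lay far above both. This order is likewise only a description. It rose in *bli* by 5.80 on the log2 scale (SE 0.19, adjusted p = 1e-08, limma), the 12th largest rise of all tested genes. The number 0.1 that was added before taking logarithms understates this change, and the ratio of the means was 62.5. The low values of *NAC103* were near-whole multiples (within 0.028) of a step that differs between libraries. This gives 7, 16 and 22 fragments in WT and 62, 27 and 30 in *bli ire1a*, so the WT level rests on few fragments.

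*NAC062*, the factor of the plasma membrane, was at 15.8, 11.6 and 21.1 FPKM in WT and at 43.2, 40.1 and 43.5 in *bli*. Its levels in *bli ire1a* were 20.6, 18.4 and 16.6 FPKM, within the range of WT, and those in *bli ire1b* were 33.1, 28.2 and 29.5, between WT and *bli*. It rose in *bli* by 1.42 on the log2 scale (SE 0.17, adjusted p = 9.61e-05, limma).

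*NAC089*, the factor of the ER membrane, was at 13.1, 10.4 and 12.6 FPKM in WT and at 26.4, 31.1 and 29.0 in *bli*. It had 11.6, 12.3 and 13.8 FPKM in *bli ire1a* against 23.5, 21.1 and 21.4 in *bli ire1b*. As with *NAC062*, the *bli ire1a* libraries overlapped with WT and the *bli ire1b* libraries lay between WT and *bli*. The rise in *bli* was 1.26 on the log2 scale (SE 0.10, adjusted p = 8.13e-06, limma).

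*bZIP28* was at 14.7, 14.5 and 17.4 FPKM in WT and at 20.3, 19.1 and 19.8 in *bli*. The double mutants had 19.0, 18.5 and 17.7 FPKM (*bli ire1a*) and 18.7, 16.5 and 18.0 FPKM (*bli ire1b*). WT replicate 3 was the highest of its group and overlapped with *bli ire1b*. *bZIP17* was at 11.8, 11.1 and 10.9 FPKM in WT and at 14.9, 14.1 and 14.7 in *bli*. The double mutants had 13.7, 13.05 and 12.2 FPKM (*bli ire1a*) and 14.5, 14.7 and 15.4 FPKM (*bli ire1b*). For *bZIP17* each mutant library was above each WT library, a description without a share over all tested genes. In *bli ire1a* its difference from WT did not pass the test (adjusted p = 0.0752, limma). On the log2 scale the rise in *bli* was 0.35 for *bZIP28* (SE 0.08, adjusted p = 0.00681, limma) and 0.37 for *bZIP17* (SE 0.07, adjusted p = 0.00199, limma). *S1P* and *S2P*, which encode the proteases that free both proteins, did not pass the test in *bli* (log2 fold changes of 0.10 and -0.21, adjusted p = 0.381 and 0.294, limma). *S1P* was higher than WT in *bli ire1b* (log2 fold change 0.33, adjusted p = 0.0099, limma), and neither gene passed in the other 4 comparisons.

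*bZIP49* was at 0.0605, 0.0379 and 0.174 FPKM in WT and at 0.142, 0.0377 and 0.0649 in *bli*. Its values were 0.10, 0.155 and 0.102 FPKM in *bli ire1a*, and 0.0542, 0 and 0.215 FPKM in *bli ire1b*. These values were within 0.0044 of whole multiples of a step that differs between libraries, and stand for 0 to 5 fragments per library, 26 in all. The groups overlapped, and the gene was left out of the tests by the minimum mean of 0.5 FPKM. At this depth a difference between the genotypes was not detectable. Its last 200 bases overlap with AT3G56650 on the other strand, and whether the counting used strand is not given in the sources used here.

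**Figure D2:**
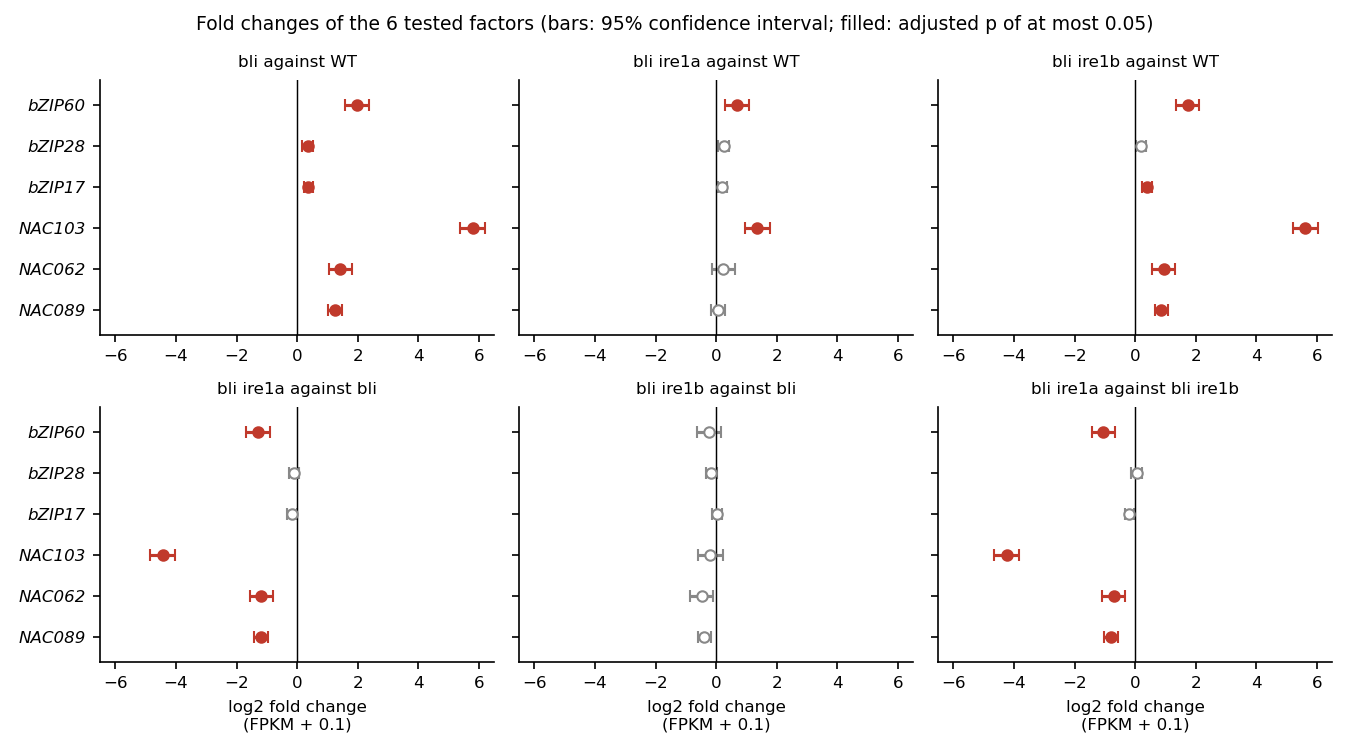
Log2 fold change of log2(FPKM + 0.1) (horizontal axis) of the 6 tested factors in the 6 comparisons, with 95% confidence intervals from limma. Filled points have an adjusted p of at most 0.05 over all 20645 tested genes. In *bli ire1a* against *bli* the points of *NAC103*, *bZIP60*, *NAC062* and *NAC089* were filled and below 0, and in *bli ire1b* against *bli* no point was filled.

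Mutation of *IRE1A* in *bli* lowered 4 of the 6 factors. The comparison asks which of the transcripts raised in *bli* depend on *IRE1A*. *NAC103* fell from 43.0 to 1.91 FPKM, *bZIP60* from 193 to 79.4, *NAC062* from 42.3 to 18.6 and *NAC089* from 28.8 to 12.6, while *bZIP28* and *bZIP17*, at 0.932 and 0.892 times their mean level in *bli*, did not pass the test. Of all tested genes 7.65% were called lower in *bli ire1a* than in *bli*. At the study's cutoffs the same 4 genes were lower, against 2.03% of all tested genes.

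The log2 fold change of *NAC103* in *bli ire1a* against *bli* was -4.44 (SE 0.19, adjusted p = 1.92e-07, limma), the 24th largest fall of all tested genes. *bZIP60* fell by 1.29 on the log2 scale (SE 0.18, adjusted p = 0.000949, limma). Both NAC genes with a membrane anchor fell by 1.19 on this scale, *NAC062* with SE 0.17 (adjusted p = 0.00125, limma) and *NAC089* with SE 0.10 (adjusted p = 5e-05, limma). For *bZIP28* the log2 fold change was -0.10 with a 95% confidence interval of -0.28 to 0.08 (adjusted p = 0.462, limma). For *bZIP17* it was -0.16 with an interval of -0.32 to -0.01 (adjusted p = 0.147, limma). The libraries of both genotypes did not overlap for either gene, a description without a share over all tested genes.

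Relative to WT, 2 of the 6 factors were higher in *bli ire1a*, against 7.17% of all tested genes. *NAC103* was higher by 1.37 on the log2 scale (SE 0.19, adjusted p = 0.00118, limma), and it was also the single factor past the study's cutoffs, against 1.79% of all tested genes. *bZIP60* was higher by 0.69 (SE 0.18, adjusted p = 0.0237, limma), but not when *bli ire1a* replicate 1 or replicate 2 was left out (adjusted p = 0.0817 and 0.0629) or when only these 2 genotypes were fitted (adjusted p = 0.12, limma). *bZIP28* at 0.25 (adjusted p = 0.0655) and *bZIP17* at 0.20 (adjusted p = 0.0752) did not pass the limma test. Their libraries did not overlap with WT, a description without a share over all tested genes. Without WT replicate 3, *bZIP28* passed the limma test (adjusted p = 0.022). *NAC062* and *NAC089* overlapped with WT, at log2 fold changes of 0.24 (95% confidence interval -0.14 to 0.61) and 0.07 (-0.16 to 0.29).

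Mutation of *IRE1B* in *bli* left each of the 6 factors short of the threshold. The levels of *NAC103* (37.7 against 43.0 FPKM) and *bZIP17* (14.9 against 14.6) overlapped between *bli ire1b* and *bli*. *NAC062* at 30.3 against 42.3 FPKM and *NAC089* at 22.0 against 28.8 were lower in each of the 3 *bli ire1b* libraries than in each *bli* library. The same held for *bZIP60* (164 against 193 FPKM) and *bZIP28* (17.7 against 19.7). The share of all tested genes that separate in this way is not given, so the separation only describes these libraries. Of all tested genes, 3.25% were called lower, and 1.81% at the study's cutoffs, which 0 of the 6 factors passed. At unadjusted p of at most 0.05 from limma, *NAC062* and *NAC089* were lower, and the share of all tested genes at that rule is not given.

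For *NAC062* the log2 fold change in *bli ire1b* against *bli* was -0.48 with a 95% confidence interval of -0.86 to -0.11 (unadjusted p = 0.0165, adjusted p = 0.139, limma). For *NAC089* it was -0.39 with an interval of -0.62 to -0.16 (unadjusted p = 0.00323, adjusted p = 0.0607, limma). Both passed at adjusted p without WT replicate 2 (0.0417 and 0.0327, limma). That library is not part of this comparison, so leaving it out changes the shared estimate of spread and not these fold changes. *NAC062* also passed with only the 2 genotypes in the fit (0.0336, limma). For *NAC103* the interval was -0.60 to 0.22 and for *bZIP60* -0.63 to 0.15, around log2 fold changes of -0.19 and -0.24. *bZIP28* was at -0.15 (-0.33 to 0.03) and *bZIP17* at 0.03 (-0.13 to 0.18).

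Relative to WT, 5 of the 6 factors were higher in *bli ire1b*, against 19.1% of all tested genes. *NAC103* was higher by 5.61 on the log2 scale (SE 0.19, adjusted p = 1.69e-08, limma), the 8th largest rise of all tested genes, and *bZIP60* by 1.74 (SE 0.18, adjusted p = 2.75e-05, limma). These were also the 2 factors past the study's cutoffs, against 3.32% of all tested genes. *NAC062*, *NAC089* and *bZIP17* were higher by 0.94, 0.87 and 0.40 (adjusted p of 0.00134, 8e-05 and 0.00111, limma). *bZIP28* at 0.19 (adjusted p = 0.0813, limma) did not pass, and it did without WT replicate 3 (adjusted p = 0.0197, limma) and after quantile normalization (adjusted p = 0.0404, limma).

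Both double mutants were also compared with each other, which tests directly whether the *ire1a* and *ire1b* mutations differed in their effect. In *bli ire1a* 4 of the 6 factors were lower than in *bli ire1b*, against 5.30% of all tested genes. *NAC103* had a log2 fold change of -4.25 (SE 0.19, adjusted p = 4.15e-07, limma) and *bZIP60* of -1.05 (SE 0.18, adjusted p = 0.00368, limma), and these passed the study's cutoffs, which 1.06% of all tested genes did. *NAC089* was lower at -0.80 (SE 0.10, adjusted p = 0.000878, limma). *NAC062* was lower at -0.71 (SE 0.17, adjusted p = 0.0214, limma), but not when either *bli ire1a* replicate 2 or 3 or *bli ire1b* replicate 1 or 3 was left out (adjusted p from 0.0545 to 0.0805, limma). For *bZIP28* the log2 fold change was 0.05 (95% confidence interval -0.13 to 0.23), and for *bZIP17* it was -0.19 (-0.35 to -0.04, adjusted p = 0.0963, limma).

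**Figure D3:**
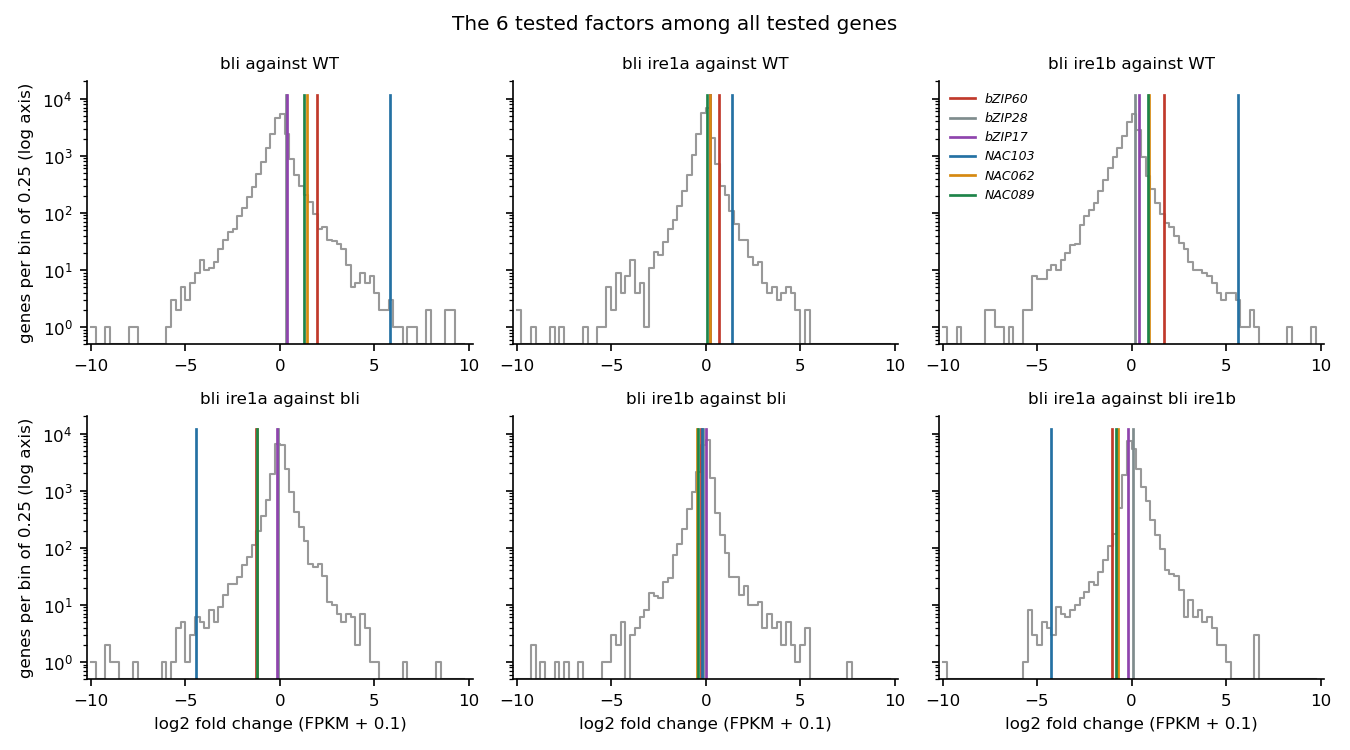
Distribution of the log2 fold changes of all 20645 tested genes (grey line, genes per bin of 0.25 on a log axis, with values beyond 10 in the outermost bins) and the 6 tested factors (coloured lines) in each comparison. *NAC103* lay far out on the high side in *bli* and *bli ire1b* against WT and on the low side in *bli ire1a* against *bli* and against *bli ire1b*, whereas *bZIP28* and *bZIP17* stayed near the middle.

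Ratios of levels within a library do not depend on the scaling between libraries. The ratio of *NAC103* to *bZIP60* was 0.0145 ± 0.00602 for WT and 0.222 ± 0.00489 for *bli* (SD, n = 3). For the double mutants it was 0.0240 ± 0.00374 (*bli ire1a*) and 0.230 ± 0.00804 (*bli ire1b*). Its lowest value in *bli* was 0.218 and its highest in WT 0.0204, whereas *bli ire1a*, at 0.0199 to 0.0272, overlapped with WT. The ratio of *bZIP60* to *bZIP28*, the leading factors of the RNA branch and the protein branch, was 3.24 ± 0.816 for WT and 9.82 ± 0.900 for *bli*, and 4.31 ± 0.337 (*bli ire1a*) against 9.23 ± 0.388 (*bli ire1b*) for the double mutants. *NAC062* and *NAC089* stood in a ratio of 1.33 to 1.49 on average in the 4 genotypes, with overlapping libraries.

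A list of 30 UPR target genes (chaperones, folding enzymes, and genes of ER-associated degradation and transport) was described next. Which of them the 7 factors control was not tested. In *bli* 26 of the 30 were higher than in WT, against 17.3% of all tested genes, and 0 were lower, with a median log2 fold change of 0.89 against -0.01 over all tested genes. *BiP3*, an ER chaperone, rose from 0.664 to 72.8 FPKM (log2 fold change 6.93, adjusted p = 1.68e-06, limma) and *NSF* from 3.11 to 139.6 (5.55, adjusted p = 9.11e-08, limma). In *bli ire1a* 21 were lower than in *bli*, against 7.65% of all tested genes, and 0 were higher (median -0.38), with the largest falls for *SARA1*, which encodes a GTPase of vesicle transport (from 28.9 to 1.05 FPKM, log2 fold change -4.68), and *NSF* (from 139.6 to 6.92, -4.32). In *bli ire1b* against *bli*, 0 of the 30 passed the limma test at adjusted p (median -0.04). At the study's cutoffs 1 was lower, against 1.81% of all tested genes. At unadjusted p of at most 0.05 from limma, 4 were higher and 5 lower, a rule whose share of all tested genes is not given. In comparison with WT, 23 of the 30 were higher in *bli ire1a* and 28 in *bli ire1b*, against 7.17% and 19.1% of all tested genes. Set against *bli ire1b* directly, *bli ire1a* had 17 lower, against 5.30% of all tested genes, and 0 higher. At unadjusted p of at most 0.05 from limma 1 was higher, again without a share of all tested genes. These are the largest rises and falls of a list whose results were known, and they are given as a description.

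*IRE1A* and *IRE1B* encode the sensors that cut *bZIP60*. *IRE1A* was itself higher in *bli*, at 23.3 against 15.5 FPKM in WT (log2 fold change 0.59, SE 0.09, adjusted p = 0.000565, limma). *IRE1B* did not pass the test there (log2 fold change 0.17, adjusted p = 0.184, limma). By qRT-PCR, normalized to *ACTIN* and run on a further *BLI* allele too, the study found the expression of both genes unaffected in *BLI* mutants. The limma call of *IRE1A* here differs from that, but its 1.51-fold rise did not pass the study's cutoffs. The stated ages of the plants also differ. The reason for the difference was not tested. The log2 fold change of *IRE1A* in *bli ire1a* against *bli* was -2.14 (adjusted p = 2.12e-07, limma), and that of *IRE1B* in *bli ire1b* was -1.15 (adjusted p = 0.000253, limma).

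**Figure D4:**
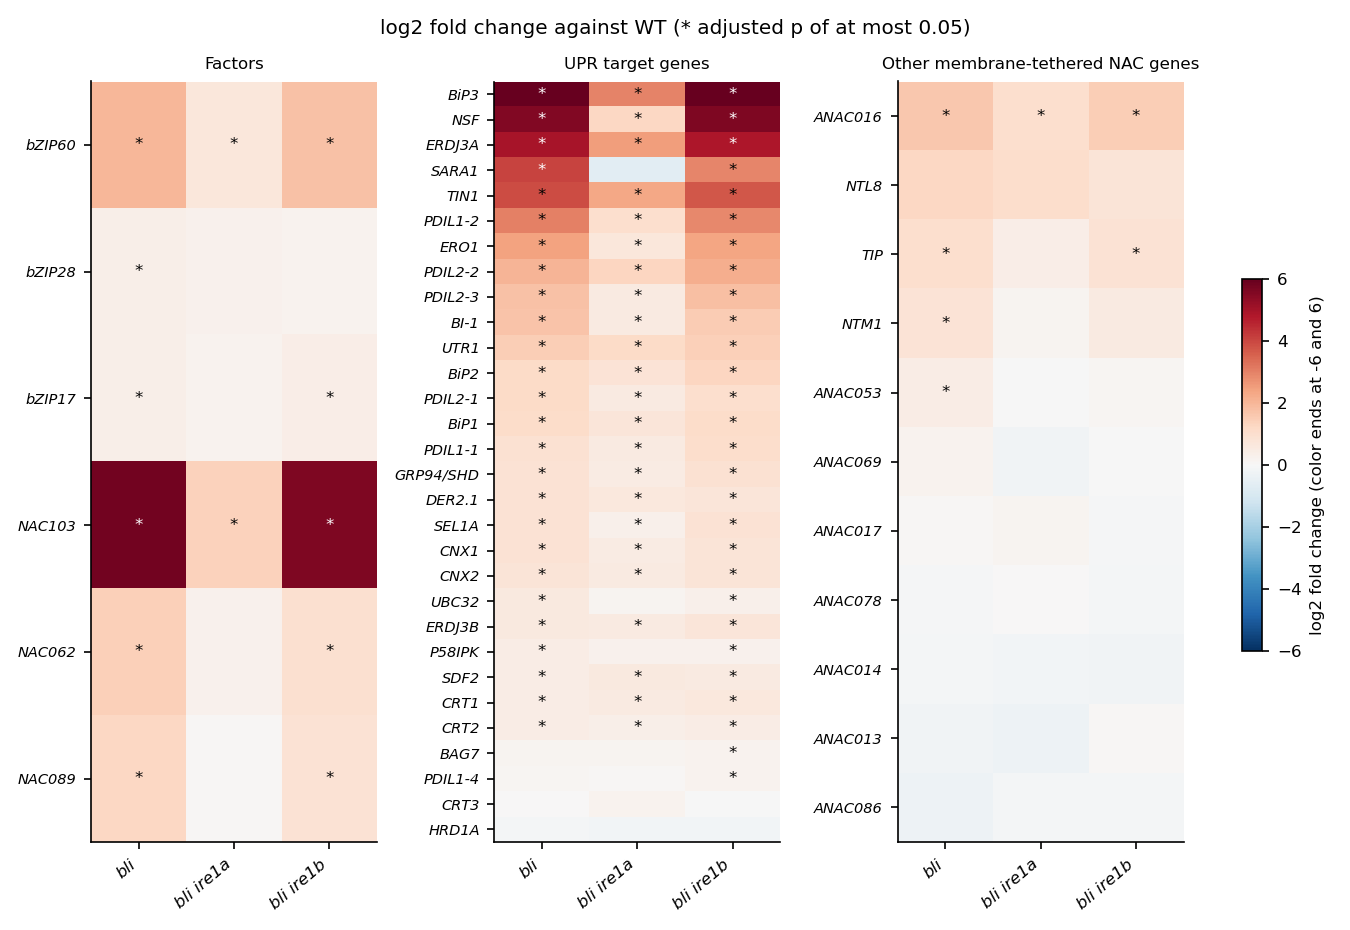
Log2 fold change against WT of the 6 tested factors, of the 30 UPR target genes and of 11 other membrane-tethered NAC genes (rows) in the 3 mutants (columns). Red is higher and blue lower than in WT, colors end at -6 and 6, and stars mark an adjusted p of at most 0.05. In *bli* 26 target genes and 4 other NAC genes were starred.

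Of the 4 flower markers, 1 moved with the 4 factors that changed most. *SEP3*, which encodes a floral MADS-box factor, was at 4.39 FPKM in WT against 32.6 in *bli*, and at 11.2 in *bli ire1a* against 24.2 in *bli ire1b*. The other flower markers *AP1*, *LFY* and *AG* were at or below 0.676 FPKM in each library and too low on average to be tested. In *bli* the means of *AP1* (0.063 against 0.149 FPKM in WT) and *LFY* (0.118 against 0.188) were lower than in WT. That of *AG* was higher (0.619 against 0.388). *SEP3* was 1 of the 4 markers and made up nearly all of their sum, which was 3.83 to 7.11 FPKM in WT against 30.6 to 35.0 in *bli*, and 8.32 to 14.2 in *bli ire1a* against 23.1 to 26.8 in *bli ire1b*. Root markers also differed between the genotypes. The sum of *RCI3*, *EXPA7* and *CASP1* was 83.5 to 125 FPKM in WT against 45.9 to 80.4 in *bli*, and 51.4 to 96.5 in *bli ire1a* against 28.1 to 52.1 in *bli ire1b*. All 3 were called lower in *bli ire1b* than in WT and *RCI3* also in *bli* (log2 fold change -1.23, adjusted p = 0.0121, limma), while *CASP1* was higher in *bli ire1a* than in *bli ire1b* (0.92, adjusted p = 0.0482, limma). Whether the amount of flower or root tissue differed, and its part in the levels of the factors, was not tested. The green tissue sum was 40957 to 44512 FPKM in *bli ire1a* and 37409 to 39740 in *bli ire1b*. In whole seedlings, fewer cells of a type and less RNA per cell cannot be told apart.

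The genes whose pattern was most like that of each factor were named by Pearson's r of log2(FPKM + 0.1) over the 12 libraries, among 19300 genes with a mean of at least 1 FPKM. The 12 points fall into 4 genotypes and share their scaling, so r mostly reflects the group means and is a description. Closest to *bZIP60* were *PI4K GAMMA 4* (r = 0.989), AT4G17470 (0.988) and AT1G11210 (0.987). Closest to *NAC103* were AT1G17960 (r = 0.994), annotated as a threonyl-tRNA synthetase, *GMI1* (0.993) and *SAR1B* (0.991), a small GTPase of vesicle transport out of the ER. AT1G17960 was at 0.822 FPKM in WT against 25.9 in *bli*, and at 1.56 in *bli ire1a* against 18.4 in *bli ire1b*. *SAR1B* had 149 FPKM in WT, 282 for *bli*, and 178 for *bli ire1a* against 277 for *bli ire1b*.

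*NAC062* was closest to AT5G55530 (r = 0.981), AT5G42050 (0.972), annotated with a development and cell death domain, and *PI4K GAMMA 4* (0.970), which is also the first neighbour of *bZIP60*. AT5G42050 was at 176 FPKM in WT against 449.8 in *bli*, and at 178 in *bli ire1a* against 308 in *bli ire1b*. *NAC089* was closest to AT1G04990 (r = 0.978), AT2G43530 (0.976) and AT1G54020 (0.976). AT2G43530 was at 51.6 FPKM in WT against 264 in *bli*, and at 68.9 in *bli ire1a* against 168 in *bli ire1b*, the last of which also lay between WT and *bli*.

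*bZIP28* was closest to *ADR1-L1* (r = 0.949), AT1G15010 (0.937) and *NPR3* (0.935), and the first and last of these are known from plant immunity. *bZIP17* was closest to *EXT4* (r = 0.976), a cell wall extensin, *ATSLY1* (0.976) and *RLP1* (0.974). *EXT4* was at 701 FPKM in WT against 3439 in *bli*, and at 1488 in *bli ire1a* against 3508 in *bli ire1b*, a far wider range than that of *bZIP17*. The values of *bZIP49* came from so few fragments that its nearest genes (r = 0.816 for AT2G34530, 0.814 for AT5G42010 and 0.800 for *UBP4*) carry little information.

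The members of the set have distinct sequences. For each of the 7 genes, the exons of the transcript with the longest coding sequence were cut into windows of 50 bases. Each window occurred once in the TAIR10.1 genome, so no identical stretch of that length lies elsewhere. Copies with mismatches were not searched. *bZIP60* has a transcript of 1231 bases in 2 exons with a coding length of 888, and *NAC103* one of 1747 bases in 5 exons with a coding length of 1071. *NAC062* and *NAC089* have 2 annotated transcripts each, which a value per gene does not separate.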

How the data were processed

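RNA-Seq was performed on seedlings of 4 genotypes with 3 libraries each. The authors filtered low-quality reads, aligned the rest to TAIR10 with TopHat and deposited an FPKM value per gene and library. The program that computed the FPKM is not given in the sources used here, and the submitters' processing notes name a short-read aligner and a mouse build, which belong to another organism. Libraries were assigned to genotypes by their titles, and 0 columns were left unused. The authors' own fold changes were not used.

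Of 33557 genes, the 20645 with a mean of at least 0.5 FPKM were tested on log2(FPKM + 0.1), so fold changes of low genes are understated. All 4 genotypes entered a single model in limma 3.58.1 (R 4.3.3, lmFit and eBayes with trend, 8 residual degrees of freedom). The call threshold was 0.05 for p adjusted by Benjamini-Hochberg over all tested genes. The study's cutoffs were a second rule. An exact permutation test of 3 libraries against 3 cannot give p below 0.1, so libraries that do not overlap are a description and not a test. The methods call the replicates biological but do not say which plants or cultures they came from. The p-values therefore set each difference only against the spread between these libraries, estimated over all 4 genotypes.

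The 7 factors and the gene lists were chosen with earlier results of these data known. The rule for named genes takes the 7 factors, the mutated genes, *S1P* and *S2P*, the 2 largest rises and falls of each list, and the 3 genes most like each factor. *SEP3* and the neighbours given with levels were picked with their values in view.

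The 22 alternatives were pseudocounts of 1 and 0.01, no filter, a mean of at least 1 FPKM, a fit of the 2 compared genotypes alone, a block for the replicate number, upper-quartile scaling, quantile normalization, no trend, the study's cutoffs, and leaving out each of 12 libraries. In simulated data of 20435 genes, 200 with a mean of at least 1 FPKM were changed by 2 on the log2 scale. Of the changed genes 182 were called in the right direction and 0 in the wrong one, and 5 unchanged genes were called. Smaller changes were not simulated. Sequences and gene structures came from RefSeq TAIR10.1, which matched 32810 of the gene identifiers (97.8%). Coordinates are in that release.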

Additional observations from a re-analysis of the deposited data

How the results depend on the processing

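Each of the 36 fold changes (6 factors in 6 comparisons) was recomputed under 21 alternatives, of which 30 kept their call in each, 2 lost it under at least 1, 4 gained it under at least 1, and 0 changed sign while called. The log2 fold change of *NAC089* in *bli ire1a* against WT, which was not called, ranged from -0.04 to 0.13. With only the 2 groups compared, 1 factor was called in *bli ire1a* against WT (2 in the full model) and 1 in *bli ire1b* against *bli* (0 in the full model). At the study's cutoffs 4 were called in *bli* against WT (6 at adjusted p), 1 in *bli ire1a* against WT, 2 in *bli ire1b* against WT and 2 in *bli ire1a* against *bli ire1b*. When each library was left out in turn, 1 to 3 factors were called in *bli ire1a* against WT (1 without *bli ire1a* replicate 1 or 2, 3 without WT replicate 3), 0 to 2 in *bli ire1b* against *bli* (2 without WT replicate 2), 5 to 6 in *bli ire1b* against WT and 3 to 4 in *bli ire1a* against *bli ire1b*. When only the 2 groups were fitted or a library was left out, the counts of 6 in *bli* against WT and 4 in *bli ire1a* against *bli* held, and the latter held at the study's cutoffs too. Beyond the smaller sample, the cause was not tested. Correlations of same-numbered libraries were weak (from -0.108 to 0.0881, 0 of 18 over 0.1). Those between 2 mutants were all positive (0.026 to 0.088), whereas those with WT had both signs, so the numbers may pair the libraries weakly. With the replicate number as a block the counts were 6, 2, 5, 4, 0 and 4 in the 6 comparisons, as without it. Over all genes, upper-quartile scaling moved the higher share of the calls from 46.4% to 58.9% in *bli ire1a* against *bli* and from 25.3% to 36.8% in *bli ire1b* against *bli*, where quantile normalization gave 35.9%. Depth limits *bZIP49* in each library and *NAC103* in WT.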

Other observations

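Other NAC genes whose proteins carry a membrane anchor had a smaller median change than the log2 fold changes of *NAC062* and *NAC089* (1.42 and 1.26), although *ANAC016* exceeded both. Of 12 listed, 11 passed the filter, and 4 were higher in *bli* than in WT (against 17.3% of all tested genes) while 0 were lower, with a median log2 fold change of 0.22 against -0.01 over all tested genes. *ANAC016*, known from leaf senescence and drought responses, rose from 0.930 ± 0.213 to 3.03 ± 0.481 FPKM (SD, n = 3, log2 fold change 1.61, adjusted p = 0.000548, limma). *TIP* rose from 18.8 ± 3.31 to 37.2 ± 4.50 FPKM (0.99, adjusted p = 8.68e-05, limma), and *NTM1* (0.81) and *ANAC053* (0.42) were also called.

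In *bli ire1a* against *bli*, 3 of the 11 were lower (against 7.65% of all tested genes) and 0 higher, namely *TIP* (log2 fold change -0.61, adjusted p = 0.00607), *ANAC053* (-0.45, 0.00336) and *ANAC069* (-0.42, 0.0325, limma). In *bli ire1b* against *bli*, 0 of the 11 passed the limma test at adjusted p and 0 passed the study's cutoffs. At unadjusted p of at most 0.05 from limma 2 were lower, and the share of all tested genes at that rule is not given. Relative to WT, *ANAC016* was higher in both *bli ire1a* (1.02, adjusted p = 0.0202) and *bli ire1b* (1.46, adjusted p = 0.000929, limma), and *TIP* in *bli ire1b* (0.87, adjusted p = 0.000179, limma).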
